A study of Mus musculus with 25 samples.

Results

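The contacts described here were KLF4-bound chromatin contacts listed on day 3 of reprogramming and listed neither on day 6 nor in embryonic stem (ES) cells. A contact is a pair of 10 kb bins on 1 chromosome. Of the 23720 contacts in the day 3 KLF4 list, 15241 (64.3%) had no contact with the same pair of bins in the day 6 list (4047 contacts) or in the ES list (24589 contacts). The 9 lists of the series held 493983 contacts in all. Contacts were thus chosen by the CPM and p-values that put them in the KLF4 lists, and the H3K27ac and Hi-C libraries of MEF and ES took no part in it. ES cells did take part, through their KLF4 list. For comparison, 8479 day 3 contacts were also listed on day 6 or in ES, and these are called shared contacts below.

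Mouse embryonic fibroblasts (MEFs) came from E13.5 embryos heterozygous for an Oct4-GFP reporter, the OKSM cassette (the reprogramming factors Oct4, Klf4, Sox2 and Myc) and rtTA3, the doxycycline-dependent activator that drives it. The day 3 KLF4 group had 3 libraries of cells kept in doxycycline and ascorbic acid and collected in bulk, and the day 6 KLF4 group had 4 libraries of cells sorted for SSEA1, a surface marker of cells on the way to pluripotency. MEFs at passage 3, which carried the cassette too, gave 2 H3K27ac and 2 Hi-C libraries. V6.5 ES cells grown in 2i medium gave 4 KLF4, 2 H3K27ac and 2 Hi-C libraries. ES cells labelled TKO gave 3 H3K27ac libraries at 0 h and 3 at 24 h of doxycycline, used only for counts of presence and names of bins. Day 3 populations therefore mixed cells at any stage, and no H3K27ac or Hi-C library of day 3 was used here. In the H3K27ac lists, 10 of 14 fibroblast and matrix genes had more contacts in MEF (1 had more in ES), and 18 of 18 pluripotency genes had more in ES.

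KLF4 is a zinc finger transcription factor that binds GC-rich CACC-type sites at promoters and enhancers and is one of the reprogramming factors. In fibroblasts it is known for acting on genes of the differentiated cell as well as on the pluripotency programme, and AP-1, the JUN and FOS family of factors, is a main activator of fibroblast enhancers. In HiChIP, neighbouring DNA ends are ligated in the nucleus and products carrying a protein are pulled down, here KLF4 or H3K27ac, an acetylated histone H3 found at active enhancers and promoters. Hi-C maps contacts with no pull-down.

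The sequences show promoters of genes on which the results turn. Each is the stretch of 250 bases before the most upstream start of the gene in RefSeq (GRCm38.p6, the same coordinates as mm10), printed 5′ to 3′ on the strand of the gene. Capitals mark matches on either strand to a KLF motif (GGGNGTGG) or to an AP-1 motif (TGANTCA). Anxa2 and Emp1, 2 genes among the strongest contacts, held 1 and 2 AP-1 matches and 0 KLF matches. The Anxa2 stretch is chr9:69453433-69453682 (plus strand), and that of Emp1 is chr6:135362681-135362930 (plus strand).
Anxa2: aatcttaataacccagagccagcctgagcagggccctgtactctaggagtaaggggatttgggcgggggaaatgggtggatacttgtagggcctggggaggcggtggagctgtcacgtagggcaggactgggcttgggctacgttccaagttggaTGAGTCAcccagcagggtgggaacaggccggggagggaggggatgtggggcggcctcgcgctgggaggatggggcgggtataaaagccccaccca
Emp1: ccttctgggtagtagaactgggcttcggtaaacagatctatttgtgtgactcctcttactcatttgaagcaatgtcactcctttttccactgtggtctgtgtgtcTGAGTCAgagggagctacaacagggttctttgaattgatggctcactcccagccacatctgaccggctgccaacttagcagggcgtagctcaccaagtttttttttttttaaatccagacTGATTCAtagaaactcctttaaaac
Vim, Tgfbr1, Tgfbr2 and Dusp1 stand for the fibroblast, TGF-beta and immediate early lists and held 1, 2, 1 and 2 KLF matches. Their stretches are chr2:13574061-13574310 (plus strand), chr4:47352972-47353221 (plus strand), chr9:116175364-116175613 (minus strand) and chr17:26508473-26508722 (minus strand).
Vim: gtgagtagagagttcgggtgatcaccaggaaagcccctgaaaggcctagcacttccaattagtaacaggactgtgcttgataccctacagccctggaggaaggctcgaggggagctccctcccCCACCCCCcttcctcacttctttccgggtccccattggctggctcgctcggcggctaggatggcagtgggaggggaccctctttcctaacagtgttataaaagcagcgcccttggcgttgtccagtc
Tgfbr1: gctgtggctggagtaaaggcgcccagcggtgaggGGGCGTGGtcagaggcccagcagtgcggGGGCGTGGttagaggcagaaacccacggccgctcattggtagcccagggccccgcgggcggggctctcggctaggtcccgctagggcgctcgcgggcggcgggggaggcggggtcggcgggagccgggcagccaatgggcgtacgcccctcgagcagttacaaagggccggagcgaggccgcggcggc
Tgfbr2: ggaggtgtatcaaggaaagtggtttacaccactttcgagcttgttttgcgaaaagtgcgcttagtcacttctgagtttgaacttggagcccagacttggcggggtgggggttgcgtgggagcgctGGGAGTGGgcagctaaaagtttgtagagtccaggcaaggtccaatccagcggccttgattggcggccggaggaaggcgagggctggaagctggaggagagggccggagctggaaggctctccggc
Dusp1: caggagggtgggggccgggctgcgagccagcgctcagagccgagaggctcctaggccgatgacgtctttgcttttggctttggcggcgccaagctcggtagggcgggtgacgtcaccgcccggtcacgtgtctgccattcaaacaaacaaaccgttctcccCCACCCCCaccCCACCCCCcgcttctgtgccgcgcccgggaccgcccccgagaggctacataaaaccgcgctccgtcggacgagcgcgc
Nanog, at chr6:122707239-122707488 (plus strand), is shown because it was the pluripotency gene with a day 3 contact that could be tested in H3K27ac. It held 1 KLF match.
Nanog: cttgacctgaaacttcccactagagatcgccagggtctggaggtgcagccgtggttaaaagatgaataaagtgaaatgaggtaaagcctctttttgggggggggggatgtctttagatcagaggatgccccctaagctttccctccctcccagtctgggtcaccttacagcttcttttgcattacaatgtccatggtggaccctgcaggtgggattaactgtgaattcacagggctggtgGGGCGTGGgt
Over all 300-base RefSeq promoters of protein-coding genes (250 bases before to 50 after the start), 4132 of 21263 (19.4%) held the KLF motif on either strand. The share was 23.2% (95% Wilson interval 21.8 to 24.7) of the 3416 promoters in a bin with a contact of day 3 alone, 25.3% of the 1873 in bins with shared contacts only, and 17.9% of the other 15974. The AP-1 motif, which does not overlap the KLF motif in letters, was in 6.99% of all promoters. Its share was 5.36% in bins with a contact of day 3 alone, 5.02% in bins with shared contacts only and 7.57% in the others. Median GC content was 61.7%, 61.0% and 54.3% in those 3 sets, and its part in the motif shares was not tested. A match describes these letters alone.

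Contacts of day 3 alone spanned longer distances than shared contacts and were weaker. The median distance between the anchor bins was 30 kb (quartiles 20 and 40 kb, longest 1450 kb), against 20 kb for shared contacts (longest 480 kb). Neighbouring bins made up 24.9% of contacts of day 3 alone and 41.5% of shared contacts, whereas 7.87% (1199 contacts) and 3.14% (266 contacts) spanned 100 kb or more. At 500 kb or more there were 24 contacts of day 3 alone and 0 shared contacts. The median was 20 kb without chromosome 19 and 10 kb among contacts of day 3 alone with a mean strength of at least 6 CPM.

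**Figure D1:**
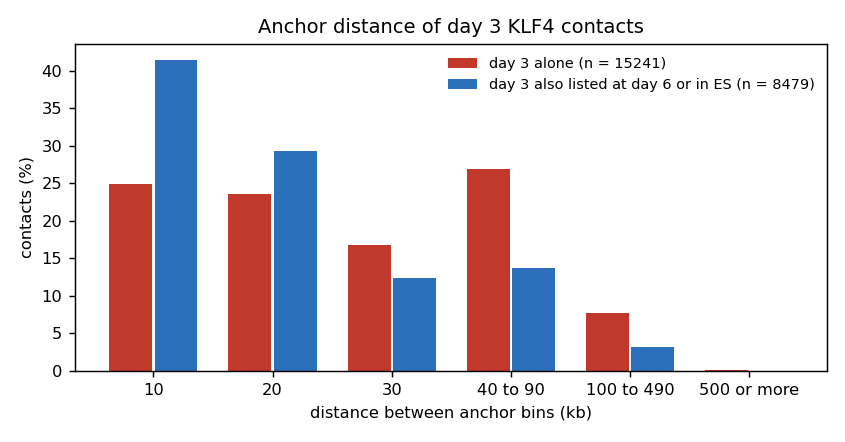
Share of day 3 KLF4 contacts (y axis, %) by distance between the 2 anchor bins (x axis, kb) for contacts of day 3 alone and shared contacts. At 10 kb the bars stand at 24.9% and 41.5%, and at 40 to 90 kb at 26.8% and 13.7%.

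Strength was taken as CPM, the count scaled to the contacts of the same chromosome. The authors' list starts at 3 CPM in replicates 1 and 2, so strength took part in the choice and is given as a description. The median over contacts of day 3 alone was 5.07 CPM in replicate 1, 4.82 in replicate 2 and 4.10 in replicate 3, from median counts of 13, 32 and 36 contacts. Replicate 3, on which the list sets no minimum, was under 3 CPM at 21.6% of contacts of day 3 alone (3293) and at 5.34% of shared contacts. Just inside the cutoff lay many of them: 41.1% had a value under 4 CPM in replicate 1 or 2, and the lowest was 3.01 CPM. What lay just outside, in the day 6 or ES libraries, has no value here, since their lists start at 3 CPM as well. The mean of the 3 libraries had a median of 4.65 CPM for contacts of day 3 alone and 6.15 CPM for shared contacts. In the authors' deposited table, 37 of the 15241 contacts of day 3 alone had an FDR under 0.1, against 90 of the 8479 shared contacts. This FDR goes with the p-value that took part in the choice. The 37 spanned a median of 150 kb, with 22 at 100 kb or more. Of the 37, 28 were in the MEF H3K27ac list and 12 in the ES H3K27ac list.

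Many contacts of day 3 alone had a near neighbour in the other KLF4 lists. For 5006 contacts of day 3 alone (32.8%) a day 6 or ES KLF4 contact lay within 1 bin of both anchors, which left 10235 without one. When the 3 KLF4 lists were all reduced to the 4047 strongest contacts, the length of the day 6 list, 2039 contacts were of day 3 alone. A single cutoff on counts relative to the whole library, set in all 3 lists, gave 6720. Of the 6720, 5556 were contacts of day 3 alone in the full lists. Under this cutoff the day 3, day 6 and ES lists held 10507, 558 and 13551 contacts. Absence from the day 6 list could thus exclude at most 558. Both anchors took part in some day 6 or ES KLF4 contact in 26.2% of contacts of day 3 alone, 1 anchor did in 37.0% and 0 in 36.8%. Of their 17617 anchor bins, 10685 (60.7%) were in no day 6 or ES KLF4 contact.

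The strongest contacts included those of Anxa2, Vim and Emp1. Ranked by count relative to all contacts of the library, the first joined neighbouring bins at the start of Anxa2, a calcium-dependent membrane-binding protein (chromosome 9, bins starting at 69450001 and 69460001). Its strength was 28.7, 22.1 and 20.8 CPM in replicates 1, 2 and 3 (23.9 ± 4.24 CPM, SD, n = 3). All 3 libraries stood far above the cutoff. MEF H3K27ac listed the same contact at 20.7 and 26.9 CPM, and it was in neither the ES H3K27ac list nor either Hi-C list. Vim, the intermediate filament of mesenchymal cells, was joined to the start of the predicted gene Gm9875 over 20 kb (chromosome 2, 13550001 and 13570001) at 15.0, 11.1 and 7.86 CPM. This contact was listed in MEF H3K27ac (8.63 and 11.9 CPM) and MEF Hi-C and in neither the ES H3K27ac nor the ES Hi-C list. A day 6 or ES KLF4 contact lay within 1 bin of both anchors of the Vim contact, and none did so for the Anxa2 contact.

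Emp1, a tetraspan membrane protein, was joined over 110 kb to the bin of Gsg1 (chromosome 6, 135250001 and 135360001). The values of 12.8, 11.5 and 11.2 CPM (11.8 ± 0.849 CPM, SD, n = 3) lay close together. Its FDR in the authors' deposited table was 2.83e-08. MEF H3K27ac had 12.8 and 14.8 CPM at this contact, and both Hi-C lists held it. A contact over 20 kb on chromosome 17 (66720001 and 66740001), with no annotated start in its bins, reached 30.1, 21.5 and 17.3 CPM and was listed in MEF H3K27ac but not in ES H3K27ac. Another of the 10 strongest, on chromosome 9 (78610001 and 78620001), lay in a bin to which the authors' lists give the name Cd109, a cell surface protein. It had 22.8, 18.2 and 10.9 CPM. The contacts of Emp1, of chromosome 17 and of Cd109 each had a day 6 or ES KLF4 contact within 1 bin of both anchors. Of the 10 strongest contacts, 8 were in MEF H3K27ac and 5 in ES H3K27ac, with 5 in MEF only, 2 in ES only and 3 in both, the Cd109 contact among the last. The 2 in ES only lay on chromosomes 6 (31590001 and 31600001) and 11 (77870001 and 77880001), and the one on chromosome 11 had such a KLF4 neighbour. Replicate 1 was the highest of the 3 libraries in all of the 10 strongest contacts, and replicate 2 lay above replicate 3 in 9 of them. By CPM, which is relative to the chromosome, the 5 strongest contacts apart from these and any that shared a bin with them were all on chromosome 19. Their means were at least 19.1 CPM, no annotated start lay in their bins, 2 of the 5 were in MEF H3K27ac and 1 was in ES H3K27ac.

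**Figure D2:**
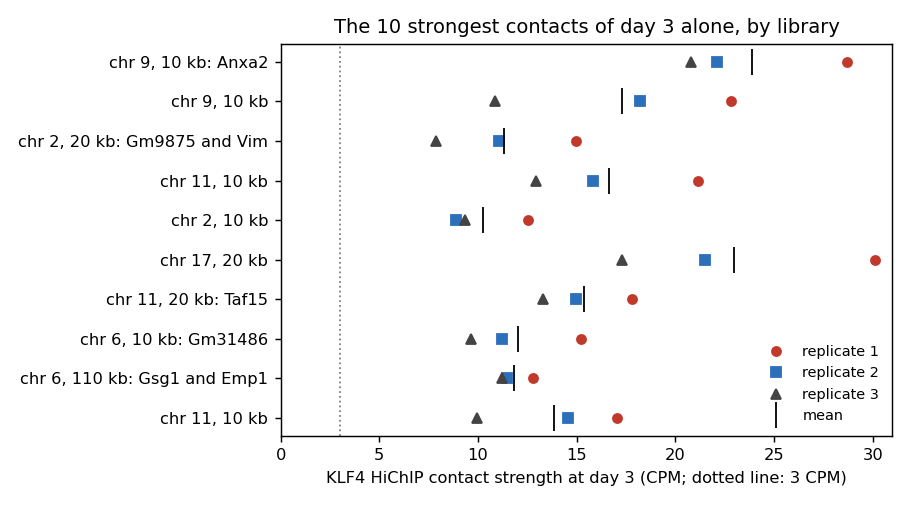
Strength (x axis, CPM) of the 10 strongest contacts of day 3 alone in each of the 3 day 3 libraries, with the mean as a vertical bar and the cutoff of 3 CPM as a dotted line. Rows give chromosome, anchor distance and annotated starts. The Anxa2 contact runs from 20.8 to 28.7 CPM and the contact of Emp1 and Gsg1 from 11.2 to 12.8 CPM.

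The 5 longest contacts belonged to Adamts1, Bcl6 and Hoxa9. Adamts1, a secreted metalloprotease, reached over 1450 kb on chromosome 16 (85800001 and 87250001) at 3.61, 3.14 and 2.34 CPM and over 1440 kb at 4.51, 3.33 and 3.58 CPM. Of this pair the 1440 kb contact was in the MEF H3K27ac list (4.63 and 5.92 CPM). Bcl6, a transcriptional repressor, had contacts over 1280 and 1080 kb, and the 1080 kb contact was in ES and not in MEF H3K27ac (3.06 and 3.69 CPM in ES). Replicate 3 was at 1.10 CPM for the first, well under the other 2 libraries (4.51 and 3.14 CPM). Hoxa9, a homeobox factor, was joined over 1050 kb on chromosome 6 (51170001 and 52220001) at 3.96, 5.0 and 3.74 CPM, from 13, 41 and 41 contacts, and in none of the 4 H3K27ac and Hi-C lists. Of contacts of day 3 alone at or beyond 100 kb, 53 of 1160 (4.57%) crossed a MEF domain boundary. An ES boundary was crossed by 70 of 1181 (5.93%). For shared contacts at or beyond 100 kb these were 5 of 256 (1.95%) and 10 of 257 (3.89%). Lengths were not matched, since contacts of day 3 alone ran to 1450 kb and shared contacts to 480 kb. At 40 to 90 kb, 1.67% of contacts of day 3 alone and 1.72% of shared contacts crossed a MEF boundary. For ES boundaries these shares were 1.52% and 1.43%.

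Some bins held many contacts of day 3 alone, mostly on chromosome 19. The bin with the most (20 contacts, chromosome 19, start 16250001) had no annotated start, and the bin of Tcf7l2, a Wnt pathway transcription factor (chromosome 19, start 55740001), had 19. Over all its starts Tcf7l2 had 30 contacts of day 3 alone, 0 in the day 6 list and 1 in the ES KLF4 list. Of the 8 bins with the most contacts, 6 were on chromosome 19, which held 1353 contacts of day 3 alone (8.88%). Deposited CPM is relative to the contacts of a chromosome, so 3 CPM stands for fewer reads on a small one. Under a single cutoff for all chromosomes, set in all 3 KLF4 lists, chromosome 19 held 229 of 6720. Counts per bin and gene under this cutoff cover only contacts of day 3 alone in the full lists. By these the Tcf7l2 bin had 1, and the leading bin was that of Emp1 with 11. Among the other genes with the most contacts of day 3 alone, Rab11fip2, a Rab11 effector of recycling endosomes on chromosome 19, had 11, with 0 contacts in day 6 and ES KLF4, 12 in MEF H3K27ac and 0 in ES H3K27ac. Cobl, an actin nucleator on chromosome 11, had 11 and differed in having 1 contact in MEF and 13 in ES H3K27ac. Under the single cutoff Rab11fip2 had 2 and Cobl 6. The Emp1 bin had 11 contacts under either cutoff, 1 in the day 6 list, 2 in ES KLF4, 15 in MEF H3K27ac and 2 in ES H3K27ac.

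More contacts of day 3 alone were listed as H3K27ac contacts in MEF than in ES. The MEF H3K27ac list held 5863 of the 15241 (38.5%, 95% Wilson interval 37.7 to 39.2), and the ES H3K27ac list 4405 (28.9%, 28.2 to 29.6). Shared contacts had the opposite order, with 59.4% in MEF and 76.9% in ES. In MEF but not in ES were 3754 contacts of day 3 alone (24.6%) and 10.1% of shared contacts. In ES but not in MEF were 2296 (15.1%) and 27.6%. Both lists held 2109 (13.8%) and neither held 7082 (46.5%), against 49.3% and 13.0% of shared contacts. Most shared contacts were chosen through ES cells, and among the 1092 shared with day 6 but not ES, 49.4% were in MEF and 34.6% in ES H3K27ac. The MEF list was the shorter of the pair, with 60870 contacts against 75466. Of the contacts of day 3 alone without a KLF4 neighbour within 1 bin, 35.4% were in MEF and 18.8% in ES H3K27ac.

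**Figure D3:**
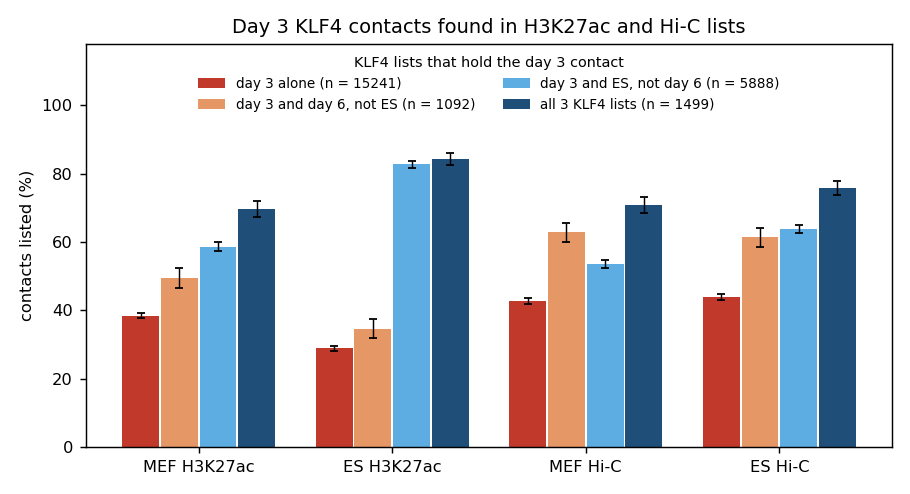
Percent of day 3 KLF4 contacts (y axis) found with the same 2 bins in each of 4 lists (x axis), by the KLF4 lists that held the contact. Error bars are 95% Wilson intervals and cover counting error only. Contacts of day 3 alone stand at 38.5% for MEF and 28.9% for ES H3K27ac, and at 42.7% and 43.9% for MEF and ES Hi-C.

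Stronger contacts were more often in the MEF H3K27ac list, among contacts of day 3 alone as among shared contacts. From the lowest to the highest of 4 equal groups by mean CPM (bounds 3.81, 4.65 and 6.10 CPM), the MEF share was 25.8%, 35.6%, 44.1% and 48.3%. The ES share was 25.0%, 30.9%, 30.3% and 29.3% in the same groups. Shared contacts had the same rise over the same bounds, with 34.7%, 47.2%, 57.3% and 67.3% in MEF and 73.7% to 77.5% in ES. By distance (10, 20, 30, 40 to 90, and 100 kb or more), 41.2%, 41.1%, 37.1%, 35.3% and 35.4% of contacts of day 3 alone were in MEF H3K27ac, and 26.3%, 29.9%, 32.9%, 29.8% and 22.9% in ES H3K27ac. When each anchor was allowed to lie 1 bin away, 61.9% matched a MEF and 44.3% an ES H3K27ac contact. Both anchor bins took part in some MEF H3K27ac contact in 60.8% of contacts of day 3 alone and in some ES H3K27ac contact in 43.6%.

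Hi-C lists held similar shares from both cell types. MEF Hi-C listed 42.7% of contacts of day 3 alone (6515) and ES Hi-C 43.9% (6693), with 2190 in MEF only and 2368 in ES only. Shared contacts were at 57.8% and 65.6%. At 100 kb or more the shares of contacts of day 3 alone were 38.5% in MEF and 29.6% in ES. The ES Hi-C list was the longer, with 318622 contacts against 228083. In none of the 4 lists were 3488 contacts (22.9%), against 4.06% of shared contacts. With the TKO H3K27ac lists counted too, 3025 (19.8%) were in no other list of the series. The strongest of these joined the bin of Epgn, an EGF family growth factor, to its neighbour (chromosome 5, 91020001 and 91030001) at 13.2, 9.91 and 10.7 CPM. It was singled out after its values had been seen, and a day 6 or ES KLF4 contact lay within 1 bin of both its anchors.

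Where both cell types listed a contact of day 3 alone in H3K27ac, it tended to be stronger in MEF relative to other contacts. Of the 2109 tested with edgeR's quasi-likelihood test, 437 (20.7%) were higher in MEF and 220 (10.4%) higher in ES at an adjusted p under 0.05. Over all 17901 contacts in both lists, 32.0% were called, 14.4% higher in MEF and 17.6% higher in ES. Shared contacts had 655 of 4180 (15.7%) higher in MEF and 1207 (28.9%) higher in ES. The median log2 change (ES minus MEF) was -0.18 over contacts of day 3 alone, -0.04 over all contacts and 0.12 over shared contacts. Contacts of day 3 alone were chosen by absence from the ES KLF4 list, and most shared contacts by presence in it. The sets therefore differ by choice in their relation to ES cells, and the part of this choice in the directions was not tested. Among the 657 called contacts of day 3 alone, the values of MEF and ES libraries did not overlap in 603 (91.8%), against 93.8% of all 5721 called contacts and 96.1% of the 1862 called shared contacts.

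The split between directions depended on the scaling. With library totals in place of TMM factors, the median over all contacts rose to 0.21 and that of contacts of day 3 alone to 0.06, and 257 were higher in MEF and 391 higher in ES. On that scale 7.97% of all contacts were higher in MEF and 27% higher in ES. The gap to the median of all contacts was -0.15 on either scale. In the 4 pairings of single MEF and ES libraries that gap ran from -0.17 to -0.13, while shared contacts lay 0.14 to 0.19 above all contacts. DESeq2 called 147 higher in MEF and 93 higher in ES among the 1389 to which it gave an adjusted p. Over all contacts it called 870 and 1588 of 12695. Without MEF replicate 2 the median log2 change was -0.15 over contacts of day 3 alone and -0.0034 over all contacts.

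**Figure D4:**
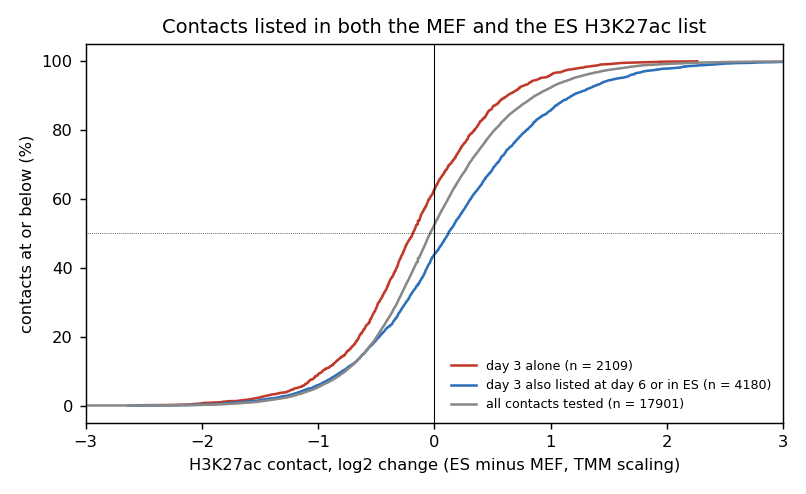
Cumulative share of contacts (y axis, %) by log2 change in H3K27ac HiChIP (x axis, ES minus MEF) for contacts of day 3 alone, shared contacts and all contacts listed in both cell types. Curves cross 50% at -0.18, 0.12 and -0.04 under TMM scaling. With library totals, not drawn here, the medians lie further to the right.

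The gene with the clearest MEF-sided contact was Amotl2, an angiomotin family adaptor that binds Hippo pathway proteins. Its contact over 70 kb (chromosome 9, 102640001 and 102710001) was at 8.09, 6.07 and 5.16 CPM in the day 3 KLF4 libraries. H3K27ac strength there was 16.4 and 25.4 CPM in MEF and 4.30 and 4.89 CPM in ES. The MEF libraries were both above the ES libraries, and the log2 change was -2.40 ± 0.19 (SE, edgeR adjusted p = 6.45e-15). A neighbouring contact of the same Amotl2 bin went the other way. It joined bins 102710001 and 102720001, stood at 6.63 and 6.02 CPM in MEF and 19.8 and 20.8 CPM in ES, and changed by 1.52 ± 0.19 (SE, edgeR adjusted p = 4.39e-09). Both directions held with library totals (-2.14 and 1.77).

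The other 7 contacts furthest towards MEF had log2 changes between -2.58 and -2.09 in edgeR. They lay on chromosomes 18 (36400001 and 36490001), 19 (38000001 and 38030001), 11 (86590001 and 86610001), 9 (65540001 and 65550001), 19 (53400001 and 53550001), 9 (102640001 and 102770001) and 1 (134080001 and 134090001). Of these, 6 had no annotated start in either bin, and the bin at 134090001 held the start of Gm32039. Those at 38000001 and 86590001 had no day 6 or ES KLF4 contact within 1 bin of both anchors, and the others had one. All 7, chosen for the size of their change, kept their direction in every fit. The contact at 53400001, called in the 10 fits that gave an adjusted p, had a log2 change of -2.14 and no adjusted p in DESeq2. The 8 furthest towards ES ran from 1.78 to 2.26, and all 8 had a day 6 or ES KLF4 contact within 1 bin of both anchors. They included contacts of Nanog, of Carnmt1, a carnosine methyltransferase (chromosome 19, 18600001 and 18670001, 1.83 ± 0.29 SE), and 1 in bins the authors' lists name for Spc24, a kinetochore protein (chromosome 9, 21760001 and 21770001, 2.26 ± 0.16 SE). The Spc24 contact stood at 6.90 and 7.15 CPM in MEF and 38.1 and 37.9 CPM in ES H3K27ac.

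In Hi-C no contact of day 3 alone was called between MEF and ES. Of 4311 tested with edgeR, 0 passed an adjusted p of 0.05 and 306 had an unadjusted p under 0.05, and DESeq2 called 0. Over all 124544 contacts 0.0289% were called (36 contacts), and 6.01% had an unadjusted p under 0.05. The median log2 change was -0.02 for contacts of day 3 alone and 0.00426 for all. With library totals the median over all contacts was -0.33, and 264 contacts of day 3 alone and 4.19% of all contacts were called. Median counts per contact and library were 22 to 27 in the Hi-C lists and 19 to 47 in the H3K27ac lists.

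Promoters anchored few contacts of day 3 alone. A protein-coding start lay in both bins of 554 (3.63%), in 1 bin of 3709 (24.3%) and in neither bin of 10978 (72.0%). For shared contacts these shares were 8.13%, 36.9% and 54.9%. Of contacts of day 3 alone with starts at both ends, 48.7% were in MEF H3K27ac and 65.5% in ES H3K27ac. Without a start, 35.8% were in MEF and 22.9% in ES H3K27ac. In all, 2784 of 17492 protein-coding genes (15.9%) had a start in a bin with a contact of day 3 alone, and 2786 (15.9%) in a bin with a shared contact. The shares for lists of genes are read against these values and beside the list's share for shared contacts. They cover the genes of each list with a RefSeq promoter (14 to 20 of the 20 to 24 genes listed, and 12 of 20 for mesenchymal factors).

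Fibroblast and matrix genes had contacts of day 3 alone in 6 of 14 cases and shared contacts in 4 of 14. Of the 18 contacts of day 3 alone, 13 were in MEF but not in ES H3K27ac. Vim had 5 contacts of day 3 alone, at distances of 10 to 50 kb, and 0 contacts in the day 6, ES KLF4 and ES H3K27ac lists. Besides the 20 kb contact given above, the Vim contact over 30 kb was at 7.0, 5.97 and 5.68 CPM and the one to its neighbouring bin at 5.79, 7.42 and 5.38 CPM. Tnc, the matrix protein tenascin C, had 4, all in MEF H3K27ac, with MEF values of 11.4 and 13.7 CPM at the contact over 40 kb to the bin at 64080001 on chromosome 4. Col6a2, a collagen VI chain, had 3, all in MEF H3K27ac, and the longest (110 kb) was at 3.65, 3.64 and 2.83 CPM in day 3 KLF4. Timp1, an inhibitor of metalloproteases, had 4 contacts of day 3 alone and differed from the others in having all 4 in ES H3K27ac. Both contacts of this list that could be tested were of Timp1, and 1 was higher in ES (log2 change 0.84 ± 0.30, SE, edgeR adjusted p = 0.0293), a call that held in 6 of the 9 fits that gave an adjusted p.

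Mesenchymal transcription factors had contacts of day 3 alone in 4 of 12 cases and shared contacts in 3 of 12. Of the 15 contacts of day 3 alone, 8 were in MEF H3K27ac and 0 in ES H3K27ac. Runx1, a runt domain factor, had 9 contacts of day 3 alone, 24 contacts in MEF H3K27ac and 1 in ES H3K27ac. Its contact over 20 kb (chromosome 16, 92670001 and 92690001) was at 7.22, 8.87 and 6.48 CPM and the one over 130 kb at 4.96, 5.91 and 4.41 CPM. Prrx1, a homeobox factor of limb and skin mesenchyme, had 3, all in MEF H3K27ac. Twist1, a bHLH factor of mesenchyme, had 2 that were in neither H3K27ac list, at up to 7.75, 7.39 and 4.81 CPM.

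AP-1 and immediate early genes had the highest share among the lists, 12 of 15 genes, and it was also the highest for shared contacts (9 of 15, against 15.9% of all genes). Their 26 contacts were in MEF H3K27ac in 24 cases, 12 of them not in ES H3K27ac, and 1 was in ES alone. Of 12 tested in H3K27ac, 6 were higher in MEF and 1 higher in ES in edgeR, and 3 of the 6 were contacts of the Dusp1 bin. Over contacts of day 3 alone at all protein-coding starts, 159 of 956 were higher in MEF and 108 higher in ES. The list had a median log2 change of -0.57, against -0.11 over those 956. With library totals the counts were 4 and 3. Dusp6, a phosphatase of ERK, had a contact over 20 kb (chromosome 10, 99240001 and 99260001) at 5.64, 6.60 and 4.45 CPM on day 3. H3K27ac there was 8.41 and 13.3 CPM in MEF and 6.54 and 5.13 CPM in ES, a log2 change of -1.29 ± 0.21 (SE, edgeR adjusted p = 1.64e-06).

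Klf6, a KLF family factor, had a contact over 60 kb (chromosome 13, 5800001 and 5860001) with H3K27ac of 7.19 and 7.24 CPM in MEF and 3.29 and 4.95 CPM in ES, a log2 change of -1.14 ± 0.25 (SE, edgeR adjusted p = 2.46e-04). Dusp1, a MAP kinase phosphatase, had 7 contacts of day 3 alone that all were in MEF H3K27ac, and 5 were in ES H3K27ac. The Dusp1 contact to its neighbouring bin was at 11.5, 10.3 and 8.66 CPM on day 3 and was not called in H3K27ac (log2 change -0.10, and 0.15 with library totals). At 130 kb the change was -1.49 ± 0.27 (SE, edgeR adjusted p = 1.34e-05), a call that ended in 1 of the 10 fits that gave an adjusted p. Jun, Fos, Fosb, Atf3 and Ier5, all immediate early genes, each had 1 contact, and in each case it was in MEF and not in ES H3K27ac.

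Actin and focal adhesion genes had shared contacts in 9 of 20 cases and contacts of day 3 alone in 11 of 20. Of their 38 contacts, 28 were in MEF and 26 in ES H3K27ac, and of 20 tested 9 were higher in MEF and 3 higher in ES in edgeR (6 and 6 with library totals), against the 159 and 108 of 956 at all genes. Of the 9 higher in MEF, 5 were contacts of the bin of Ahnak, a large scaffold protein under the plasma membrane, on chromosome 19. The 3 higher in ES all belonged to Actn4, an actin crosslinker. Its contact over 20 kb (chromosome 7, 28940001 and 28960001) had H3K27ac of 3.69 and 5.39 CPM in MEF and 14.8 and 11.3 CPM in ES, a log2 change of 1.37 ± 0.23 (SE, edgeR adjusted p = 3.17e-06). Tpm1, a tropomyosin, had 6 contacts. The Tpm1 contact over 170 kb (chromosome 9, 67040001 and 67210001) was at 5.89, 5.49 and 5.49 CPM on day 3, with H3K27ac of 7.69 and 10.2 CPM in MEF and 3.84 and 6.12 CPM in ES (log2 change -1.04 ± 0.23, SE, edgeR adjusted p = 2.71e-04). This call ended in 1 of 11 fits. Itgb1, the integrin beta-1 chain, had 4 contacts, all in MEF H3K27ac and none called.

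TGF-beta, BMP and Hippo genes had shared contacts in 10 of 19 cases and contacts of day 3 alone in 11 of 19. Both TGF-beta receptors were among the 11. Tgfbr2 had 3, all in MEF and not in ES H3K27ac, the strongest at 8.09, 5.92 and 4.40 CPM (chromosome 9, 116170001 and 116210001). Tgfbr1 had 2, and neither was in an H3K27ac list. Ltbp1, which holds latent TGF-beta in the matrix, had 6 contacts spanning 30 to 190 kb, 1 of them in MEF H3K27ac. Id3, a target of BMP signalling, had 3, all in MEF and not in ES H3K27ac. Of 10 contacts tested in this list, 4 were higher in MEF and 1 higher in ES (3 and 2 with library totals), against the 159 and 108 of 956 at all genes. Amotl2 accounted for 2 of the 4 and for the 1 higher in ES, and the other 2 were of Tgif1, a homeobox repressor of TGF-beta responses, and Bmpr1a, a BMP receptor.

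Pluripotency genes had contacts of day 3 alone in 3 of 18 cases (16.7%), close to the share of all genes. Shared contacts were at 4 of the 18, and 15 of the 18 had an ES KLF4 contact. Nanog, a core pluripotency factor, had 1, over 30 kb (chromosome 6, 122670001 and 122700001), at 4.57, 3.54 and 3.65 CPM from 15, 29 and 40 contacts. H3K27ac at this Nanog contact was 4.20 and 5.09 CPM in MEF and 18.6 and 21.1 CPM in ES, a log2 change of 1.78 ± 0.19 (SE, edgeR adjusted p = 9.43e-11). Nanog had 3 other contacts in the ES KLF4 list, and a day 6 or ES KLF4 contact lay within 1 bin of both anchors of its day 3 contact. Fgf4, a growth factor of the early embryo, had 2 that were in ES and not in MEF H3K27ac. Mycn had 1 over 520 kb that was in neither.

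Cell cycle and p53 genes had contacts of day 3 alone in 7 of 16 cases and epithelial genes in 5 of 15. Shared contacts were more frequent in both lists, at 9 of 16 and 8 of 15 genes. Gadd45g, a stress response gene, had the most contacts of day 3 alone with 12 out to 410 kb, of which 2 passed the single cutoff for all chromosomes. Of 8 contacts tested in the cell cycle list, 2 were higher in MEF and 3 higher in ES (2 and 4 with library totals), against the 159 and 108 of 956 at all genes. The 3 higher in ES were of Ccnd3, a D-type cyclin, and of Bax, a mediator of apoptosis. Btg2, an antiproliferative p53 target, had 2, both higher in MEF. The Btg2 contact over 20 kb (chromosome 1, 134070001 and 134090001) had H3K27ac of 10.1 and 10.7 CPM in MEF and 3.25 and 4.25 CPM in ES, a log2 change of -1.84 ± 0.19 (SE, edgeR adjusted p = 2.51e-11). Among epithelial genes, 4 of 10 contacts were in an H3K27ac list, 2 in MEF and 2 in ES, and 0 were in both. Krt8, a keratin of simple epithelia, had 3, the one over 40 kb in MEF H3K27ac at 5.09 and 6.32 CPM. The lists' directions are descriptions, since lists and contacts were chosen with earlier results of these data known.

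**Figure D5:**
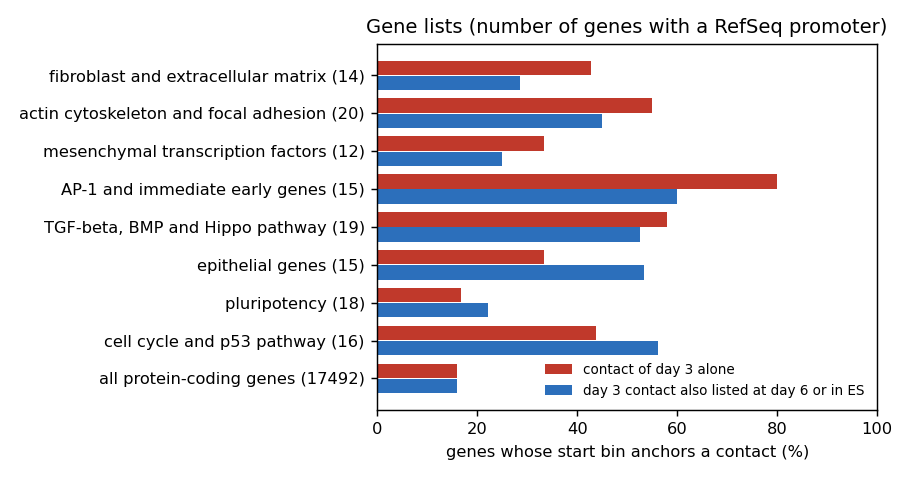
Percent of the genes in each list (x axis) whose start bin anchored a contact of day 3 alone or a shared day 3 contact. Numbers in parentheses are genes with a RefSeq promoter. AP-1 and immediate early genes stand at 80% and pluripotency genes at 16.7% for contacts of day 3 alone, beside 15.9% for all protein-coding genes.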

How the data were processed

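KLF4 and H3K27ac HiChIP and Hi-C lists of mouse cells were used as the authors deposited them. Bowtie2 2.2.3 and mm10 are named in the submitters' processing notes, and the contact caller is not given in the sources used here. Per the file headers, each list gives raw counts and CPM values per replicate library, a distance-normalized ratio (not used here), and 1 p-value and FDR per contact. The deposited CPM is relative to the contacts of the same chromosome. The Hi-C values named CPM in the deposited lists are a signal scaled by unknown chromosome constants, so counts were used. The deposited TAD lists hold a score per domain, and only domain bounds were used.

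HiChIP depth was 48.7 to 181 M contacts per library (day 3 KLF4: 54.4, 136 and 181 M). Among day 3 contacts with a mean of at least 6 CPM, pairs of libraries differed by little more than counting noise. Chi-square per degree of freedom was 1.07 to 1.09 over 8506 contacts. Of contacts of day 3 alone, 26.5% reached that mean, and weaker ones were not compared in this way. The libraries were counted as 3 replicates, as labelled. The labels do not say whether replicates were separate cultures, so p-values measure the spread between these libraries. Contacts in both the MEF and the ES list were fitted with edgeR 4.0.16 in R 4.3.3 (filterByExpr, TMM, quasi-likelihood test, Benjamini-Hochberg adjustment over all contacts). DESeq2 1.42.0 was an alternative. The fit was tested on simulated data. Wilson intervals cover counting error only, since contacts that share anchor bins are not independent. Absence from a list means a value under the authors' filters.

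Members and gene lists were chosen with earlier results of these data known. Named contacts are the 10 strongest relative to the whole library, the 5 strongest by CPM once those and contacts sharing their bins are left out (all on chromosome 19), the 5 longest, the bins and genes with the most contacts, the 8 largest called changes in each direction with no overlap, and contacts of list genes. Genes were assigned by RefSeq starts (GRCm38.p6). Of 10485 bins named in the authors' lists, 73.2% shared a name with them.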

Additional observations from a re-analysis of the deposited data

Results flagged for a closer look

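H3K27ac lists that take no part in the comparisons held some of these contacts. The ES cells labelled TKO had H3K27ac HiChIP lists without doxycycline (0 h) and after 24 h of it, and the 0 h list held 5256 contacts of day 3 alone (34.5%) and the 24 h list 4850 (31.8%). Both lists held 4207. Shared contacts were in them more often, at 78.1% and 75.1%, and the whole day 3 list stood at 50.1% and 47.3%. In a TKO list but not in the ES H3K27ac list were 1937 contacts of day 3 alone. The TKO lists were the longer, with 93248 and 84256 contacts against 75466 for ES.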

How the results depend on the processing

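The number of contacts of day 3 alone was 15241 as reported, 2039 with lists of equal length, 4032 at a mean of at least 6 CPM and 6720 with 1 cutoff for all chromosomes. Of the 6720, 5556 were among the 15241, and the day 6 list held 558 contacts under that cutoff. With 1 day 3 library left out, members were only required to pass 3 CPM in the other libraries. The outcome was set by the list: 15241 without replicate 3, and 11948 without replicate 1 or 2. It restates the 3293 contacts with replicate 3 under 3 CPM and does not measure stability. The median distance was 10 kb at 6 CPM or more and 20 kb without chromosome 19. With a tolerance of 1 bin, 61.9%, 44.3%, 77.5% and 75.8% were in MEF H3K27ac, ES H3K27ac, MEF Hi-C and ES Hi-C. At a deposited p under 0.05 these shares were 41.3%, 30.1%, 45.8% and 46.0%, at 50 kb or more 34.7%, 26.8%, 40.8% and 41.0%, and without a KLF4 contact within 1 bin 35.4%, 18.8%, 40.3% and 39.0%. At 6 CPM or more, MEF H3K27ac was at 48.4% and ES Hi-C at 42.7%. H3K27ac calls numbered 657 as reported (437 higher in MEF, 220 in ES), 240 with DESeq2 (147, 93 of 1389 given an adjusted p), 112 at 50 kb or more (68, 44 of 452 tested) and 244 without a KLF4 contact within 1 bin (184, 60 of 854 tested). Over all contacts, 2569 were higher in MEF and 3152 in ES of 17901 as reported. With DESeq2 these were 870 and 1588 of 12695, and at 50 kb or more 290 and 337 of 2620. Directions were 257 and 391 with library totals, and 265 and 357 with chromosome totals. On these scales all 17901 contacts had 1426 and 4831, and 1457 and 4528. Leaving out 1 library gave 329 to 569 calls (198 to 387 and 131 to 190), the lowest without MEF replicate 2. Fits on other scales or without 1 library tested the same 2109 contacts of day 3 alone. Fewer were tested at 50 kb or more and without a KLF4 contact within 1 bin, and fewer had an adjusted p in DESeq2. The cause of these shifts was not tested. With the replicate number as a block, 683 H3K27ac contacts (452, 231) and 3 Hi-C contacts (all higher in MEF) were called. Over all contacts that fit called 2638 and 3241 of 17901 in H3K27ac and 76 of 124544 in Hi-C. The deviations of libraries with the same number correlated at 0.028 in H3K27ac and -0.0036 in Hi-C, so the numbers are not taken as pairs. Hi-C calls were 264 with library totals, all higher in MEF, and 0 to 4 without 1 library (0 to 3 higher in MEF, 0 to 1 in ES). Chromosome totals as offsets were not run for Hi-C, whose chromosome constants are not contact totals. The gap between the median log2 change of contacts of day 3 alone and that of all contacts, added after seeing the data, ran from -0.22 to -0.10 over all H3K27ac fits. The 20 tested contacts chosen by strength or by the size of their change kept their direction in every fit. Most of them were the 8 largest called changes in each direction. For those the outcome was largely set by the choice and does not measure stability. Of the 53 tested contacts of list genes, 9 changed sign in some fit. Of these, 2 were called as reported, 1 of Ahnak (0.16 without MEF replicate 2) and 1 of Tgif1 (0.15 without MEF replicate 2).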
